A study of Mus musculus with 2 samples.

Results

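The genomic regions described here are the HA-Dido3 peaks of intermediate length, longer than 500 bp and at most 1000 bp, in mouse embryonic stem cells. They were selected from the deposited peak list by length alone, and numbered 645 of 2888 listed peaks (22.3%, exact 95% binomial interval 20.8% to 23.9%). Another 1918 listed peaks were 500 bp or shorter and 325 were longer than 1000 bp. The study used 1 ChIP library, precipitated with a polyclonal anti-HA antibody, and 1 input library prepared without antibody. Both came from C57BL/6 embryonic stem cells of genotype Dido3deltaCT+HADido3, that is, cells of the Dido3deltaCT allele to which Dido3 carrying HA, a short peptide tag, was returned, grown for self-renewal with leukemia inhibitory factor (LIF), a cytokine used to keep mouse embryonic stem cells undifferentiated. A library of cells lacking the HA tag was not analysed here, so enrichment by the tagged protein and by the antibody alone cannot be told apart.

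Dido3 is the largest protein made from the Dido1 gene. It is a nuclear protein with a PHD finger, a module that recognises histone H3 methylated at lysine 4, a mark of active gene starts, and it also carries a domain related to the transcription elongation factor TFIIS. In ChIP-seq, a protein held at one point tends to give a narrow peak, whose width depends on the sheared DNA fragments. A protein spread over a stretch of chromatin gives a wider one. Chromatin was sheared by sonication to roughly 200 to 500 bp per the labels. Fragment size was not estimated from these data, so the length of a peak is not read here as the width of binding.

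Peaks of intermediate length held an intermediate amount of signal. Together they covered 445.3 kb, or 26.9% of all listed sequence, and contained 20957 ChIP tags, or 24.9% of the tags in peaks (a tag is 1 mapped read that the peak caller kept). A peak of this length had a median of 29 tags (95% interval of the median 28 to 31, n = 645 peaks), with quartiles of 24 and 37, and the whole class ran from 18 to 121. The shorter peaks had a median of 12 tags (interval 12 to 12) and the longer ones 93 (interval 83 to 100). More tags in a longer peak follow in part from length itself, and length, tags, score and fold come from the same peak call, so these values are a description and were not tested. With 1 library of each kind there is no replicate, and all intervals cover counting error over peaks only, which they treat as independent.

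Signal per length also lay between the other classes. Peaks of intermediate length had a median density of 43.6 tags per kb (interval 43.0 to 44.4), with a range of 32.1 to 125. The median was 36.6 tags per kb in the shorter peaks (interval 36.4 to 36.9) and 60.3 in the longer peaks (interval 57.3 to 63.1). Length sets the classes and is also the divisor of the density, so these intervals are no test between classes. Summed over all peaks of a class, the density was 47.1 tags per kb at intermediate length, 38.1 below it and 68.6 above it. The plot of tags against length shows the 3 classes as 1 band.

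**Figure D1:**
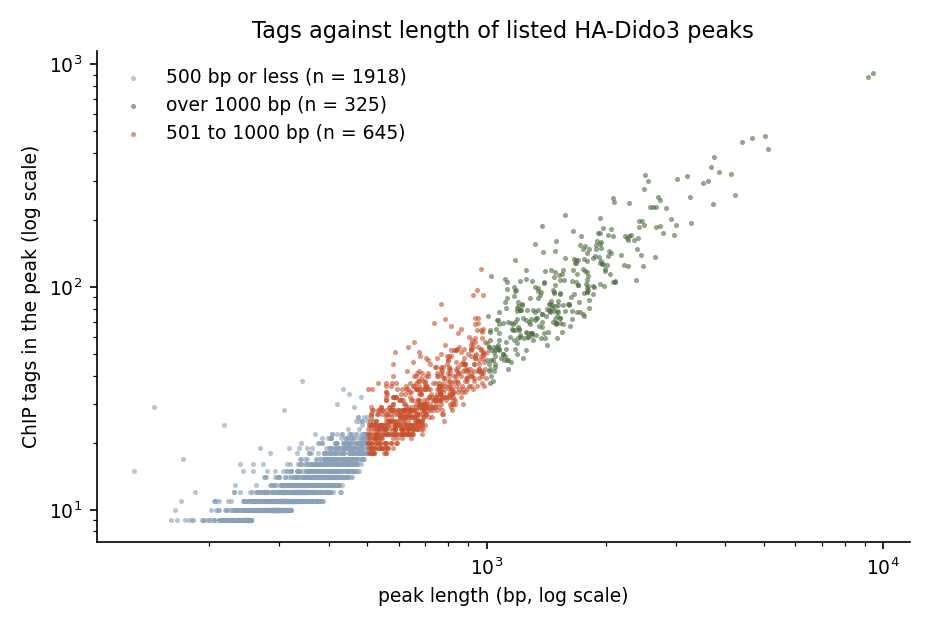
Each point is 1 listed peak, with its length in bp on the x axis and its number of ChIP tags on the y axis, both on log scales, coloured by length class. The 645 intermediate peaks, longer than 500 and at most 1000 bp (orange), hold 18 to 121 tags and lie between the shorter and longer peaks.

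Single peaks at the length bounds overlapped in tag number. Taken in order of score, 3 peaks just inside the lower bound held 23, 22 and 20 tags, and 3 peaks of 500 bp just outside it held 25, 19 and 19 tags. Just inside the upper bound, peaks of 1000, 996 and 989 bp held 51, 39 and 57 tags. Just outside it, peaks of 1002, 1004 and 1008 bp held 56, 47 and 74 tags. Over whole bins of length, however, values differed across the lower bound. The 414 peaks of over 400 and up to 500 bp had a median density of 38.2 tags per kb (interval 37.5 to 39.2), below that of the shortest intermediate peaks given next.

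Within the range, density was level at the lower end and higher at the upper end. Median density was 42.3 tags per kb (interval 41.2 to 43.7) in the 204 peaks of over 500 and up to 600 bp and 42.2 (interval 40.4 to 43.2) in the 188 peaks of up to 700 bp. It was 44.8 (interval 43.1 to 47.0) in the 103 peaks of up to 800 bp and 46.8 (interval 43.6 to 48.6) in the 83 peaks of up to 900 bp. The 67 peaks of over 900 bp had 51.0 tags per kb (interval 47.4 to 54.9). Across the 645 peaks, length and tags had a Spearman rho of 0.79, and length and tags per kb a rho of 0.26. These peaks share 1 library and 1 peak call, so the intervals and coefficients describe the list and carry no test.

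By the authors' own values, most peaks of this length were well above the calling limit. The score is minus 10 times the log10 p-value given by the peak caller, and its lowest value in the list was 50.05. The intermediate peaks had a median score of 145.7 (interval 141 to 153), and 560 of 645 (86.8%, interval 84.0% to 89.3%) scored at least 100, against 35.9% of all listed peaks. The scores of shorter peaks had a median of 61.7 and those of longer peaks 494. Of the 500 highest scores in the list, 203 belonged to intermediate, 292 to longer and 5 to shorter peaks. Among the 100 highest, 3 were intermediate and 97 longer.

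Fold enrichment, the authors' ratio of ChIP signal at the summit to the expected background there, differed less between classes than the score did. Its median was 15.7 at intermediate length (interval 15.7 to 16.3), 13.7 in shorter peaks (interval 13.7 to 13.7) and 24.5 in longer peaks (interval 23.5 to 26.6). A fold of at least 20 was listed for 148 intermediate peaks (22.9%, interval 19.8% to 26.4%), against 14.5% of all listed peaks. The false discovery rate of the authors exceeded 5% for 15 intermediate peaks (2.33%, interval 1.31% to 3.81%), against 35.4% of all listed peaks. It did so for 51.3% of shorter and 7.38% of longer peaks (interval 4.79% to 10.8% for the longer). The rate did not simply fall with score, since the highest-scoring intermediate peak had 3.57% and the class a median of 1.2%. All 15 intermediate peaks above 5% had low folds, from 4.46 to 7.98, with 19 to 47 tags, and a raised local background, described below. Of the 15, 8 lay in 3 windows of chromosomes 4 and 17 that are also described below, and without these windows the share was 1.15%. With lengths over 400 and up to 800 bp it was 5.39%.

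The strongest peak of the class lay at chr10:80644860-80645826 in mm9, the build of the file. It was 967 bp long with 121 tags, or 125 tags per kb, a fold of 88.1 and a score of 1131, rank 56 of the whole list. Its fold was the highest of all 2888 peaks, since no shorter peak exceeded 45.0 and no longer peak exceeded 84.1. The second by score was chr8:124364936-124365882 with 97 tags and a fold of 64.6. The third was chr13:17751576-17752497 with 92 tags and a fold of 54.8. These 3 were the only intermediate peaks among the 100 highest scores of the list.

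The next peaks were close to one another in strength. Peaks at chr9:64026254-64027232 and chr6:125111148-125111916 held 92 and 84 tags at folds of 45.0 and 54.8. The latter was only 769 bp long and, at 109 tags per kb, was the second densest of the class. Places 6 to 10 by score went to chr10:81480701-81481486, chr9:59527245-59527982, chr8:125629450-125630400, chr8:87364463-87365276 and chr4:136943049-136944000. They held 67 to 73 tags, with scores from 592.4 down to 501.4. The 5 densest peaks of the class were also its 5 highest scoring.

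At the other end, the sparsest peaks of the class lay below the median density of the shorter peaks. The lowest densities were 32.1 tags per kb at chr4:147984826-147985605 (25 tags) and at chr9:72522272-72522957 (22 tags). Peaks at chr3:34553063-34553618 and chr15:34462538-34463093 each had 18 tags over 556 bp, the fewest tags of the class, at 32.4 tags per kb. The next, chr16:44739759-44740402, had 32.6 tags per kb. Their folds were 11.7 to 17.6, so none of the 5 was among the peaks of lowest fold.

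Low folds occurred at peaks with ordinary tag numbers. The lowest, 4.46, was at chr4:145762127-145762808 with 39 tags, and the next, 4.88, at chr4:146432829-146433540 with 47 tags. Peaks at chr13:65476900-65477752, chr13:65721693-65722499 and chr4:145293676-145294348 had folds of 5.05, 5.11 and 5.19 with 35, 36 and 35 tags. All 5 held more tags than the median peak of their class, and all 5 had a raised local background, as described next.

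MACS 1.4 computes the fold against a genome-wide background unless the background near the peak is higher, in which case it uses the local one. Folds that are whole multiples of 1.957 (within 0.01) were taken as resting on the genome-wide floor, and the others as resting on a local background above it. By this reading 227 of 645 intermediate peaks (35.2%, interval 31.5% to 39.0%) had a background above the floor, against 27.4% of all listed peaks. The share was 23.5% in shorter peaks (interval 21.6% to 25.5%) and 34.5% in longer peaks (interval 29.3% to 39.9%). The share at intermediate length was thus close to that of the longer peaks and above that of the shorter ones, a difference that was not tested. The median fold of intermediate peaks was 12.5 (interval 11.5 to 13.3) where the background was raised and 17.6 (interval 17.6 to 17.6) where it was not, as a larger divisor gives by construction. Their densities were close, at 44.4 (interval 43.0 to 46.0) and 43.5 tags per kb (interval 42.6 to 44.1).

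The summit, the position of highest signal, was often off centre. Dividing its distance from the peak's start by the peak's length gives 0 at the start and 1 at the end, in the order of genome coordinates. The median was 0.473 at intermediate length (interval 0.441 to 0.499) and 0.5 in shorter peaks (interval 0.496 to 0.510). In longer peaks it was 0.476 (interval 0.451 to 0.520), close to that of intermediate peaks. With peaks divided into 5 equal parts, the middle part held the summit in 169 intermediate peaks (26.2%, interval 22.8% to 29.8%). The part before it held 224 summits (34.7%, interval 31.1% to 38.5%), and the part after it held 182 (28.2%, interval 24.8% to 31.9%). In shorter peaks the middle part was the fullest, with 45.3% of summits (interval 43.0% to 47.5%), and its neighbours held 27.0% and 27.2%. In longer peaks the middle part held 29.5% (interval 24.6% to 34.8%), and its neighbours held 28.9% and 23.7%. The 2 outer parts held 9.23% and 8.62% in longer peaks, against 6.51% and 4.34% at intermediate length.

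**Figure D2:**
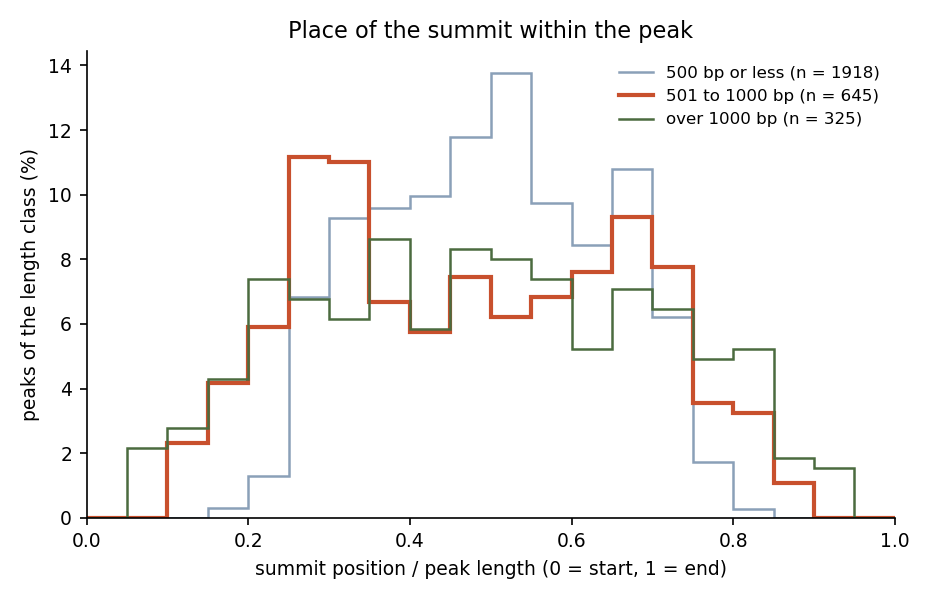
The x axis is the summit's distance from the peak start over the peak length, and the y axis is the percent of peaks of each length class in 20 equal bins. Intermediate peaks (thick orange line) are most frequent on either side of the centre, while peaks of 500 bp or less are most frequent near 0.5. In peaks of over 1000 bp no bin holds more than 8.62%.

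Counted from 0.25 to 0.75 of the length, the summit was central in 514 of 645 intermediate peaks (79.7%, interval 76.4% to 82.7%), against 89.7% of all listed peaks. The share was 96.5% in shorter peaks (interval 95.5% to 97.2%) and 69.8% in longer peaks (interval 64.5% to 74.8%). The share thus fell from shorter to longer peaks, which was not tested. The order did not hold along the whole range of lengths. The share fell from 92.0% (interval 89.0% to 94.4%) in peaks of over 400 and up to 500 bp to 75.5% (interval 69.0% to 81.2%) in those of up to 600 bp. It was 81.9% in peaks of up to 700 bp and 88.3% (interval 80.5% to 93.8%) in those of up to 800 bp, then 80.7% and, over 900 bp, 71.6% (interval 59.3% to 82.0%).

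Measured in base pairs, the summit kept a distance from the nearer end that grew less than the peak did. That distance had a median of 222 bp in intermediate peaks (interval 217 to 228), and 458 of 645 summits (71.0%, interval 67.3% to 74.5%) lay 150 to 300 bp from an end. The share was 39.7% in all listed peaks, 32.6% in shorter and 19.7% in longer peaks. A summit cannot lie farther from its nearer end than the peak's centre does, so the length rule in part sets these shares. Between intermediate peaks of at most 600 bp and those of over 900 bp, the median distance moved from 201 bp (interval 185 to 213) to 280 bp (interval 260 to 324). The smallest distance was 63 bp, at chr5:149856920-149857476. The other peaks with the summit nearest an end, relative to length, were chr11:115445094-115445932, chr12:20808659-20809443, chr15:94407857-94408521 and chr11:115882625-115883382, with 82 to 97 bp.

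**Figure D3:**
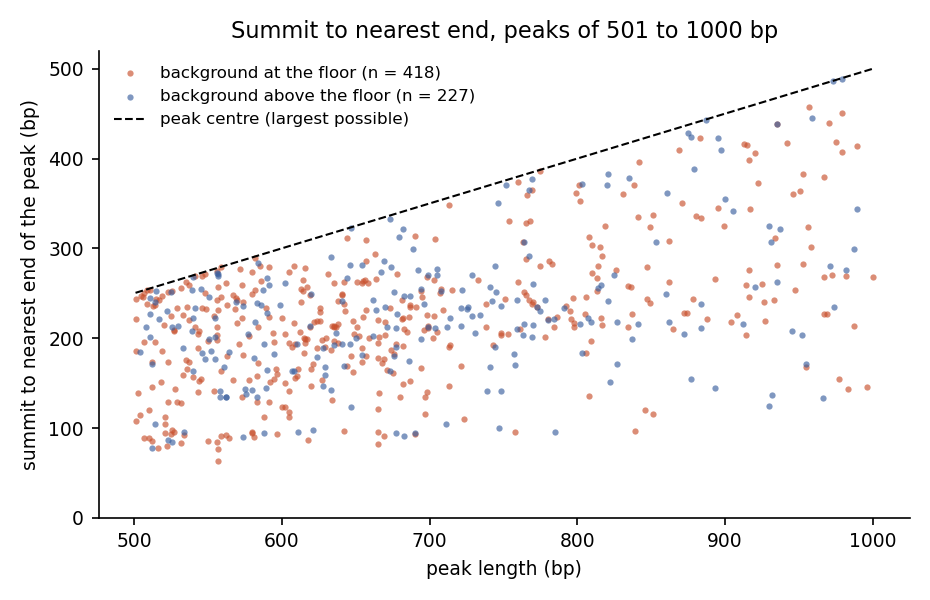
Each point is 1 intermediate peak (over 500 and up to 1000 bp), with its length on the x axis and the distance in bp from its summit to its nearer end on the y axis. The dashed line is a summit at the centre, the largest possible distance, and most points lie below it. Of all points, 71.0% lie at 150 to 300 bp, against 39.7% of all listed peaks. Colours separate peaks with a background at the floor (n = 418) and above it (n = 227).

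Intermediate peaks lay near other listed peaks. The distance to the nearest one, counted as the bases between the 2 peaks, had a median of 561 bp (interval 429 to 729) and an upper quartile of 36.1 kb. It was 496 bp for longer peaks (interval 317 to 916) and 3980 bp for shorter peaks (interval 2417 to 7326). Another listed peak lay within 10 kb of 440 of 645 intermediate peaks (68.2%, interval 64.5% to 71.8%), against 58% of all listed peaks, 53.2% of the shorter (interval 50.9% to 55.4%) and 66.2% of the longer peaks (interval 60.7% to 71.3%). Among the 1038 peaks with a score of at least 100 alone, 44.3% of the intermediate peaks (interval 40.1% to 48.5%) had another such peak within 10 kb. A shorter list lowers such shares by itself. The share of all 1038 peaks was not determined, so 44.3% is not comparable with the 58% above. Within 1 kb the share of intermediate peaks was 58.0% (interval 54.1% to 61.8%), against 46.5% of all listed and 56.0% of longer peaks. Within 100 bp it was 22.3% (interval 19.2% to 25.7%), against 17.5% of all listed and 26.5% of longer peaks. A wide enriched stretch that the caller divided gives close peaks as well, and its part in these shares was not tested.

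**Figure D4:**
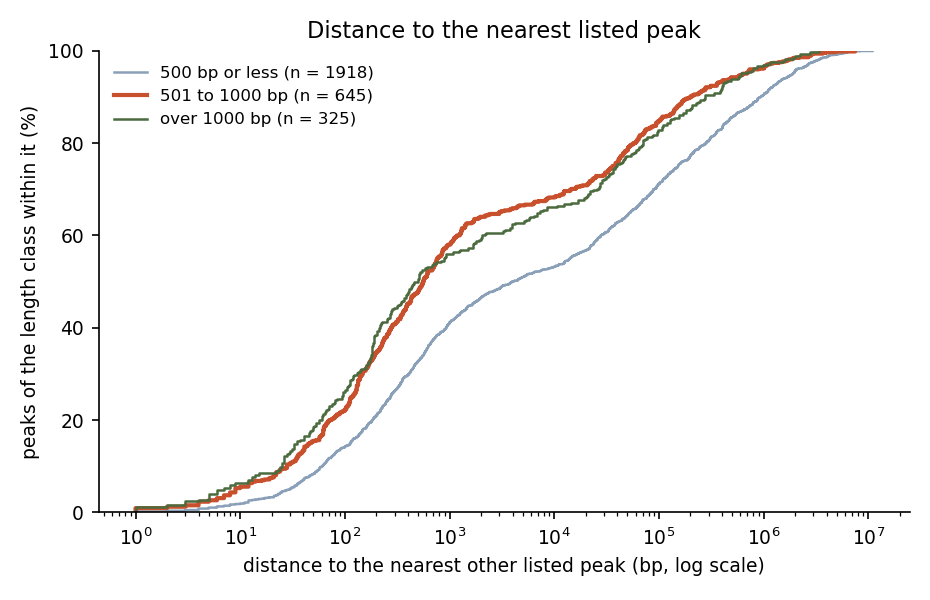
The x axis is the distance in bp to the nearest other listed peak, on a log scale, and the y axis is the cumulative percent of peaks of each length class. Intermediate peaks follow the longer peaks and lie above the shorter ones, with 58.0% within 1 kb and 68.2% within 10 kb.

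Spacing showed little relation to strength inside the class. Across the 645 peaks, the distance to the nearest peak had a Spearman rho of -0.04 with tags per kb and 0.01 with length. The 205 intermediate peaks with no other within 10 kb had a median of 31 tags (interval 28 to 33) and a score of 154 (interval 141 to 168). The 258 in groups of 3 or more, where a group joins neighbours that lie 10 kb or less apart, had 29 tags (interval 28 to 31) and a score of 143 (interval 134 to 153). All of these intervals overlapped. A background above the floor was found for 27.8% of the lone (interval 21.8% to 34.5%) and 38.8% of the grouped intermediate peaks (interval 32.8% to 45%).

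The nearest neighbour was a short peak in most cases, and short peaks made up 66.4% of the list. It was 500 bp or less for 380 intermediate peaks (58.9%, interval 55.0% to 62.7%), another intermediate peak for 180 (27.9%, interval 24.5% to 31.5%, with 22.3% of such peaks in the list) and a longer one for 85 (13.2%). Among the 374 with a neighbour within 1 kb, the intermediate peak was denser than its neighbour in 146 of 203 cases with a short neighbour (71.9%, interval 65.2% to 78.0%). It was denser in 7 of 54 cases with a longer neighbour (13.0%, interval 5.37% to 24.9%), where the median densities were 44.5 and 59.8 tags per kb. Intermediate peaks beside a longer one were thus usually the less dense of the pair. The medians of the whole classes differed in the same way, at 36.6 tags per kb in shorter, 43.6 in intermediate and 60.3 in longer peaks. Whether neighbours differ from other pairs of these classes was not tested.

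Slightly more summits lay toward a close neighbour than away from it, but unevenly by side. Of the intermediate peaks, 297 had a listed peak within 1 kb on 1 side only. The summit lay on the side of the peak's centre facing that neighbour in 171 of them (57.6%, interval 51.7% to 63.3%). The share was 49.8% in 628 shorter peaks (interval 45.9% to 53.8%) and 49.6% in 141 longer peaks (interval 41.1% to 58.2%), and both of these intervals overlap that of the intermediate peaks. Among intermediate peaks it was 57.5% above the floor (61 of 106, interval 47.6% to 67.1%) and 57.6% at it (110 of 191, interval 50.2% to 64.7%). These shares came from different sides. At the floor, 61 of 95 summits faced a neighbour before the peak and 49 of 96 a neighbour after it. Above the floor the counts were 28 of 55 and 33 of 51. Of all intermediate summits, 54.4% lay before the peak's centre, whatever the neighbour. Whether summits lean toward a neighbour was not tested.

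The closest and the most remote peaks overlapped in tag number. The 5 taken as nearest to another peak, with ties broken by score, each had 1 bp between them and it, and were chr17:47736616-47737246, chr3:95468187-95468756, chr1:39728911-39729623, chr1:39728303-39728909 and chr7:4858248-4858849. They held 25 to 42 tags, and the pair on chromosome 1 were each other's neighbours. The most remote was chr14:11609070-11609877, 7.49 Mb from the next listed peak, with 43 tags and a fold of 21.5. The others were chr13:86181527-86182410, chr6:148867310-148867979, chr6:97129193-97129765 and chr3:99305509-99306071, at 4.88, 3.93, 3.69 and 2.94 Mb, with 24 to 45 tags.

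Runs of several intermediate peaks were few. The 645 peaks fell into 531 groups, of which 205 were lone intermediate peaks, 81 held 2 intermediate peaks, 12 held 3 and 3 held 4. One of the groups of 4 spanned chr1:183824362-183831573, where intermediate peaks of 32, 37, 44 and 28 tags stood with 2 short ones, and the background was raised at 2 of the 4. The other groups of 4 lay close together at chr17:15141374-15160655 and chr17:15171561-15177254. Their intermediate peaks held 159 and 158 tags in total, and all 8 had a background above the floor. The listed peaks of other lengths in these groups had it too, so that all 6 and all 5 listed peaks did.

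In the 3 windows of 1 Mb with the most intermediate peaks, these peaks had a raised background. The windows were picked for these numbers, so high shares of intermediate peaks follow in part from the choice and were not tested. From 15 to 16 Mb of chromosome 17, 14 of 22 listed peaks were intermediate. On chromosome 4 it was 11 of 31 from 146 to 147 Mb and 10 of 26 from 145 to 146 Mb, against 22.3% of the whole list. No other window held more than 5 intermediate peaks. All 35 intermediate peaks in these 3 windows had a background above the floor, against 27.4% of all listed peaks. Of the 35, 29 lay within 10 kb of another listed peak. Such neighbours can share a local background, so the 35 are not independent and no interval is given. The share for all listed peaks of these windows was not determined. They had a median of 37 tags (interval 33 to 42) but a median fold of 8.28 (interval 7.09 to 9.38). The 610 intermediate peaks elsewhere had 29 tags (interval 28 to 30) and a fold of 15.7 (interval 15.7 to 17.3), and 31.5% of them had a background above the floor (interval 27.8% to 35.3%). The part of the raised background in these windows' peak numbers was not tested.

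A contrasting window, picked after its values were seen, lay on chromosome 10 from 79 to 80 Mb. Its 5 intermediate peaks were among 22 listed peaks, a share close to the 22.3% of the list. All 5 had a background at the floor, with a median of 48 tags, 63.9 tags per kb and a fold of 25.4. The peaks held 48, 62, 45, 50 and 31 tags in genome order, so 4 of the 5 lay above the upper quartile of the class. Chromosome 13 from 65 to 66 Mb also held 5 intermediate peaks, among 11 listed peaks. All 5 had a background above the floor, at a median of 33 tags and a fold of 8.52.

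On most chromosomes the share of peaks in the intermediate class was close to that of the list. The share ranged from 14.4% on chromosome 2 (33 of 229, interval 10.1% to 19.6%) to 28.2% on the X (11 of 39, interval 15% to 44.9%). Which chromosomes stood at the ends changed with the length bounds. With lengths over 400 and up to 800 bp, which 909 of 2888 listed peaks had, they were chromosome 19 (21.3%) and chromosome 14 (44.7%). With lengths over 600 and up to 1200 bp, which 518 of 2888 had, they were chromosome 16 (12.6%) and chromosome 4 (24.9%). The share of the whole list moves with the bounds too, so these values are not to be set against 22.3%. At the reported bounds, of 20 chromosome intervals, 19 included the overall 22.3%, and that of chromosome 2 lay below it. In absolute number chromosome 4 held the most (64 of 233 listed peaks), with a raised background at 56.3% of the 64. Chromosomes 7 and 11 followed, with 60 of 279 and 60 of 273 listed peaks, and a raised background at 33.3% and 15% of the 60. The share with a raised background was 35.2% in all intermediate and 27.4% in all listed peaks. Outside the windows named above, chromosome 4 held 43 of 176 listed peaks (24.4%) and chromosome 17 held 33 of 162 (20.4%).

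**Figure D5:**
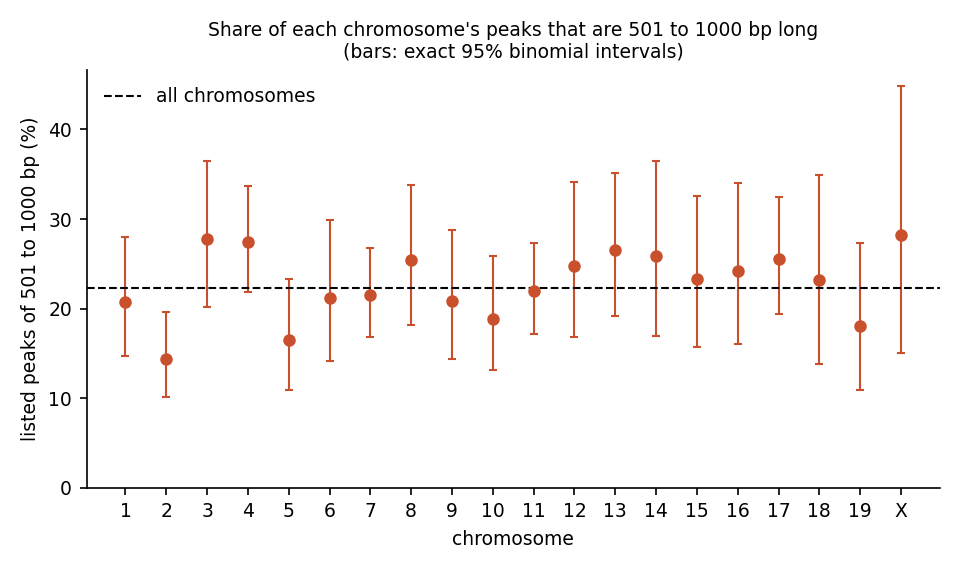
Points are the percent of each chromosome's listed peaks that are of intermediate length, with exact 95% binomial intervals as bars and the overall 22.3% as a dashed line. Only the interval of chromosome 2, at 14.4%, lies wholly below the line, and none lies wholly above it.

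The strongest intermediate peak of each chromosome spanned a limited range of lengths and a wide range of signal. These 20 peaks were 657 to 979 bp long, with a median of 935 bp, and held 43 to 121 tags, with a median of 63.5. The lowest of the 20 by score was the remote peak of chromosome 14, at 269. A neighbour lay within 1 kb of 10 of the 20, and 6 had a background above the floor. On the X the strongest was chrX:7713719-7714653 with 49 tags and a fold of 20.8. The 11 intermediate peaks of the X ranged from 22 to 49 tags and from 13.7 to 21.5 in fold, and 1 of them had a background above the floor.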

How the data were processed

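The data were 1 list of peaks from 1 HA-Dido3 ChIP library with 1 input library as control. The submitters' processing notes name Bowtie, SAMtools, MACS 1.4 and the build mm9. For options, read filters and library depth, no source used here gives a value. Per the file headers, the deposited columns were the count of ChIP tags (not scaled), the score, the fold enrichment (a ratio to background) and the false discovery rate in percent, with length and a summit counted from the peak start. All are values of single peaks as the authors deposited them. Intermediate peaks were the rows longer than 500 bp and at most 1000 bp. The length class and the quantities described were chosen with earlier results of these data known.

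Tags per kb, summit over length, distances, groups and windows were computed in Python 3.11.15 (pandas 2.3.3, numpy 2.4.6, scipy 1.17.1), with figures drawn by matplotlib 3.10.9. Shares have exact Clopper-Pearson intervals and medians have exact binomial intervals, both at 95%. The step of 1.957 in the folds was found by a grid search, with 2098 of 2888 folds at whole multiples within 0.01. The steps were checked on simulated data. Named peaks are those of highest score, highest and lowest density, lowest fold, most lateral summit, nearest and farthest neighbour, strongest per chromosome, nearest the length bounds, and the 3 groups with most members. The windows, the alternative without 3 of them and the peaks named in the chromosome 10 window were chosen after their values were seen. No mm9 sequence or annotation was used, so peaks were not assigned to genes and no sequence is shown. Alternatives were other length bounds, a score of at least 100, a false discovery rate of at most 5%, autosomes only, no close neighbours, other distances and a narrower central stretch of the peak.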

Additional observations from a re-analysis of the deposited data

How the results depend on the processing

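Of 65 values recomputed under alternatives, 42 stayed within the interval of the reported value (counts within 1.5 times) and 23 moved beyond it. With lengths over 400 and up to 800 bp, medians were 22 tags, 40.8 tags per kb, a score of 112 and a summit position of 0.499. The share with the summit between 0.25 and 0.75 was then 85.8%, and that with a false discovery rate above 5% was 5.39%. Chromosome shares ran from 21.3% to 44.7%, with 909 of 2888 listed peaks in these bounds. With lengths over 600 and up to 1200 bp, medians were 36 tags, 45.2 tags per kb, a fold of 17.6 and a score of 178. At a score of at least 100, which removes weak peaks by construction, the median fold was 17.6 and the score 158. There, 0% had a rate above 5%, and 44.3% lay within 10 kb of another remaining peak, a share that a shorter list lowers by itself. Of the 1038 remaining peaks 560 were intermediate, and chromosome shares ran from 37.5% to 68.8%. Without peaks within 1 kb of another, 271 remained and 4.43% had a rate above 5%. Without the 3 windows on chromosomes 4 and 17, that share was 1.15%. A neighbour lay within 1 kb of 58.0% and within 100 kb of 84.8%, against 46.5% and 75.5% of all listed peaks. The central of 3 equal parts held 46.2% of summits, against 61.1% in all listed peaks. No paired analysis was possible because the design holds only 1 library of each kind. Depth is unknown, so peaks that were not listed cannot be read as absent binding.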

Other observations

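Adjacent summits stood clear of each other. Where 2 intermediate peaks followed each other with at most 1 kb between them (73 pairs), their summits were a median of 844 bp apart (interval 753 to 996), with quartiles of 632 and 1160 bp. For 241 such pairs of an intermediate and a shorter peak the median was 740 bp (interval 692 to 827), and for 64 pairs with a longer peak it was 1285 bp (interval 1089 to 1478). The smallest distances in these 3 kinds of pairs were 335, 269 and 384 bp. Each distance is made up of the gap and the stretch from each summit to the facing end of its peak. Longer peaks thus leave room for larger distances.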
